A study of Mus musculus with 14 samples.

Results

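The genes described here encode the core of 3 signalling pathways, Wnt, Bmp and Shh (Sonic hedgehog), in the newborn mouse cortex. They are the 66 protein-coding genes, of 51626 gene symbols in the tables, whose symbols name Wnt ligands, Frizzled (Fzd) and Lrp5/6 receptors, secreted Frizzled-related proteins (Sfrp), Axin, beta-catenin (Ctnnb1), Tcf/Lef factors, Bmp2 to Bmp7, Bmp receptors, Smads, and Shh pathway genes, among them Shh, Ptch1, Smo and Gli1 to Gli3. Membership follows the symbol alone, and no measured value enters the rule. By role there were 19 Wnt ligands, 12 Wnt receptors, 4 Sfrp genes, 3 beta-catenin and Axin genes, 4 Tcf/Lef factors, 6 Bmp ligands, 3 Bmp receptors, 8 Smads and 7 Shh pathway genes.

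All animals were C57BL6/J mice at P0.5. Auts2 cKO mice (4 libraries) were homozygous for a floxed exon 15 of Auts2, a gene for a nuclear and cytoplasmic protein of developing neurons, and carried Emx1-cre. They were compared with mice labelled wild type (4 libraries). Emx1-cre acts in the progenitors of cortical excitatory neurons and glia, so interneurons, microglia and vessel cells of the same tissue keep an intact allele. Control mice with only the floxed allele or only the Cre transgene are not among the samples used here. The second experiment used cortex of mice with no stated mutation: RNA bound by an antibody to the C-terminal part of AUTS2 (AUTS2 RIP, 2 libraries), RNA from a control immunoprecipitation with IgG (2 libraries), and the starting lysate (10% input, 2 libraries). Each of the trios A and B came from 1 pool of 2 newborn mice, so 2 pools are the replicates. The frontal cortex libraries hold polyA-selected RNA and the pull-down libraries hold total RNA.

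Secreted Wnt proteins bind Frizzled receptors with Lrp5 or Lrp6 and release beta-catenin from a degradation complex built on Axin, so that it can act with Tcf/Lef factors on target genes. Bmp ligands bind paired receptors that phosphorylate Smads, which enter the nucleus with Smad4. Shh binds the Ptch1 receptor and frees Smo to act on the Gli factors. In the embryonic forebrain these pathways pattern the cortex along its axes and regulate progenitor proliferation and neuron formation.

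Values are FPKM, fragments scaled by transcript length and by library size, summed over the transcripts of a gene, so levels can be compared between genes. The test, limma on log2(FPKM + 1), covered genes that averaged 1 FPKM or more in a table, which were called at a Benjamini-Hochberg adjusted p under 0.05 over all genes tested. Auts2 stood at 29.8, 35.2, 30.4 and 34.5 FPKM in cKO libraries 1 to 4, against 87.7, 92.2, 55.9 and 60.2 FPKM in wild type libraries 1 to 4, a log2 change of -1.13 (SE 0.14, adjusted p = 0.0237). Its residual level includes exons outside the floxed one. Wild type libraries 1 and 2 correlated with each other over all genes at r = 0.993 and with the other 6 at 0.980 to 0.987. Library cKO 1 correlated with the other 7 at 0.980 to 0.986, and the remaining 5 with each other at 0.992 to 0.994. Xist, the transcript of the inactive X chromosome, was at 212 to 250 FPKM in cKO 1 to 3 and wild type 2 and under 0.4 FPKM in the other 4, so the groups differ in their mix of sexes. The cortical identity of the tissue was clear, with the 10 markers of excitatory neurons summing to 701 to 796 FPKM in cKO and 744 to 790 FPKM in wild type libraries. The 11 markers of cortical hem and choroid plexus, tissues that secrete Wnt and Bmp ligands, summed to 6.45 to 8.73 FPKM in cKO and 7.20 to 8.40 FPKM in wild type libraries.

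In frontal cortex 37 of the 66 genes passed the filter, 29 lay below it, and 2 of those, Wnt1 and Wnt10a, were listed at 0 in every library. Tcf7l1, at a mean of 1.17 FPKM, lay just inside the filter and Tcf7l2, at 0.909 FPKM, just outside. Beta-catenin stood far above all other members. By group mean, Wnt7b lay above every tested Wnt receptor, and Wnt7a and Wnt5a lay above all of them but Fzd3 and Lrp6. Ctnnb1, which encodes beta-catenin, was at 288 ± 21 FPKM in cKO and 285 ± 12 FPKM in wild type cortex (SD, n = 4 each, as in all means that follow). Axin1, the scaffold of the degradation complex, averaged 15.3 ± 0.58 FPKM in cKO and 17.2 ± 1.5 FPKM in wild type.

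Among the Wnt ligands Wnt7b was highest, at 30.9 ± 2.6 FPKM in cKO and 45.8 ± 15 FPKM in wild type, followed by Wnt7a at 5.26 ± 0.83 FPKM in cKO and 5.35 ± 0.52 FPKM in wild type. Wnt5a, Wnt5b and Wnt3 were the other ligands that passed the filter, and the remaining 14 did not. Fzd3, a receptor needed for axon tract formation in the mouse, averaged 15.2 ± 4.1 FPKM in cKO and 15.6 ± 1.2 FPKM in wild type. The coreceptor Lrp6 stood at 10.6 ± 0.81 FPKM in cKO and 11.6 ± 1.3 FPKM in wild type. Fzd3 and Lrp6 were thus next to each other in the order of receptors, with ranges that overlapped in cKO and did not overlap in wild type. The secreted Wnt antagonist Sfrp1 was at 20.3 ± 0.59 FPKM in cKO and 22.6 ± 3.3 FPKM in wild type, and Sfrp2 at 6.52 ± 0.61 FPKM in cKO and 5.84 ± 1.3 FPKM in wild type. The Tcf/Lef factors were low. Tcf7 averaged 1.39 ± 0.13 FPKM in cKO and 1.93 ± 0.17 FPKM in wild type. Tcf7l1 averaged 1.06 ± 0.26 FPKM in cKO and 1.29 ± 0.30 FPKM in wild type. Lef1 and Tcf7l2 did not pass the filter.

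On the Bmp side the tested receptors and Smads all lay above the tested ligands by group mean. Bmp3, an atypical ligand that can antagonise other Bmps, averaged 1.57 ± 0.23 FPKM in cKO and 1.75 ± 0.26 FPKM in wild type. Bmp7 averaged 1.28 ± 0.13 FPKM in cKO and 1.46 ± 0.15 FPKM in wild type. The other 4 Bmp ligands lay below the filter. The type II receptor Bmpr2 was at 19.1 ± 4.0 FPKM in cKO and 19.1 ± 1.1 FPKM in wild type. Bmpr1a, a type I receptor, was at 14.2 ± 0.95 FPKM in cKO and 15.0 ± 0.68 FPKM in wild type. Smad4, the partner shared by all receptor-activated Smads, averaged 29.1 ± 3.2 FPKM in cKO and 30.9 ± 0.69 FPKM in wild type. Smad5, one of the Smads that Bmp receptors phosphorylate, averaged 26.0 ± 1.9 FPKM in cKO and 27.4 ± 2.4 FPKM in wild type.

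In the Shh pathway the ligand itself was nearly absent from these libraries. Shh was listed at 0.0703 to 0.145 FPKM in cKO and 0.107 to 0.177 FPKM in wild type, while its receptor Ptch1 averaged 6.48 ± 0.85 FPKM in cKO and 5.72 ± 0.91 FPKM in wild type. The transducer Smo averaged 4.86 ± 0.45 FPKM in cKO and 4.92 ± 0.42 FPKM in wild type. Gli1, an activator and a target of the pathway, stood at 2.19, 1.66, 1.14 and 1.46 FPKM in cKO 1 to 4 and at 1.99, 1.85, 1.86 and 1.52 FPKM in wild type 1 to 4, groups that overlap. Gli2 lay under the filter at 0.651 to 1.03 FPKM in cKO and 0.759 to 0.988 FPKM in wild type.

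**Figure D1:**
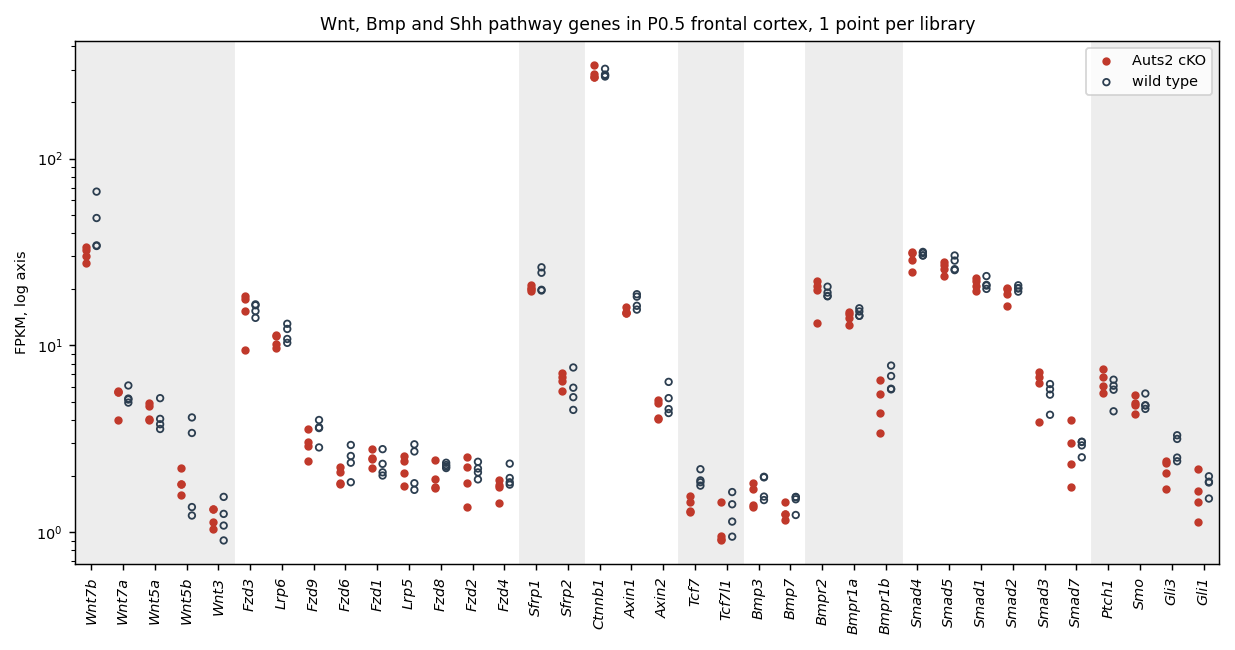
FPKM on a log axis of 36 of the 37 members tested in P0.5 frontal cortex, 1 point per library, with Auts2 cKO (filled, left) and wild type (open, right) side by side and grey bands marking roles. Ctnnb1 stands alone near 300 FPKM, Wnt7b leads the ligands, and for most genes the points of the groups overlap.

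No member was called in the comparison of Auts2 cKO with wild type cortex, which asks what loss of AUTS2 from the Emx1 lineage does to transcript levels. All 37 tested members lay at an adjusted p of 0.628 or more (limma), and 4 of the 37 had an unadjusted p under 0.05. Limma without the trend and robust settings called 0 as well. Over all genes tested, 0.0235% were called, 0.00782% as higher and 0.0156% as lower, so that 3 of 12786 genes passed, and 1011 had an unadjusted p under 0.05. The sign of the members' changes was uneven: 7 of 37 (18.9%) had a positive log2 change, against 50.4% of all genes tested, and their median log2 change was -0.10, against 0.00 over all genes. Tissue was measured in bulk, and fewer cells of a type and less RNA per cell cannot be told apart.

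Counted by role, the positive values were 2 of 5 Wnt ligands, 1 of 9 Wnt receptors, 1 of 2 Sfrp genes, 1 of 3 beta-catenin and Axin genes, 0 of 2 Tcf/Lef factors, 0 of 2 Bmp ligands, 0 of 3 Bmp receptors, 1 of 6 Smads and 1 of 5 Shh pathway genes. The 3 members with no overlap between the groups, Tcf7, Wnt7b and Gli3, all lay lower in cKO, beside 4.41% of all genes that did not overlap in either direction.

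Tcf7, a nuclear partner of beta-catenin, had 1.3, 1.56, 1.45 and 1.28 FPKM in cKO 1 to 4, against 1.78, 1.90, 1.85 and 2.2 FPKM in wild type 1 to 4. Every cKO library lay below every wild type library, by little in absolute terms, and the log2 change was -0.29 (SE 0.10, adjusted p = 0.628). Wnt7b, the ligand at the highest level here, had 27.6, 30.0, 32.3 and 33.5 FPKM in cKO, against 48.1, 66.6, 34.1 and 34.3 FPKM in wild type. Wild type libraries 1 and 2 were high and the other wild type libraries lay within 1 FPKM of the highest cKO library. The log2 change was -0.50 (SE 0.17, adjusted p = 0.628). Gli3, which in the embryonic cortex acts mainly as a repressor of Shh targets, had 1.71, 2.07, 2.39 and 2.36 FPKM in cKO, against 3.16, 3.31, 2.51 and 2.4 FPKM in wild type. Here too wild type 1 and 2 were the highest of the 8, and the log2 change was -0.29 (SE 0.12, adjusted p = 0.628).

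Bmpr1b, a type I Bmp receptor, had 3.41, 6.53, 5.49 and 4.35 FPKM in cKO and 6.86, 7.81, 5.87 and 5.82 FPKM in wild type. Only cKO 2 reached the range of the wild type libraries, and the log2 change was -0.37 (SE 0.15, adjusted p = 0.628). Axin1 had 15.1, 15.0, 14.9 and 16.2 FPKM in cKO and 18.3, 18.8, 16.3 and 15.6 FPKM in wild type, with cKO 4 above wild type 4 and a log2 change of -0.16 (SE 0.08, adjusted p = 0.641). Of all members these 5 had the most negative test statistics.

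The 5 members with the most positive test statistics had groups that overlapped. Ptch1 had 5.58, 7.51, 6.77 and 6.05 FPKM in cKO and 6.09, 4.44, 5.80 and 6.56 FPKM in wild type, a log2 change of 0.16 (SE 0.12, adjusted p = 0.691). Sfrp2 had 5.69, 6.47, 7.13 and 6.77 FPKM in cKO and 5.94, 7.62, 5.29 and 4.52 FPKM in wild type, a log2 change of 0.15 (SE 0.13). Its highest value was a wild type library. Fzd1 (0.08, SE 0.11), Smad3 (0.11, SE 0.16), the Smad that TGF-beta and activin receptors phosphorylate, and Wnt5a (0.08, SE 0.12), a ligand that often acts without beta-catenin, followed. Smad3 was lowest in cKO 1 and wild type 1, at 3.89 FPKM and 4.26 FPKM, and lay between 5.46 and 7.21 FPKM elsewhere.

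**Figure D2:**
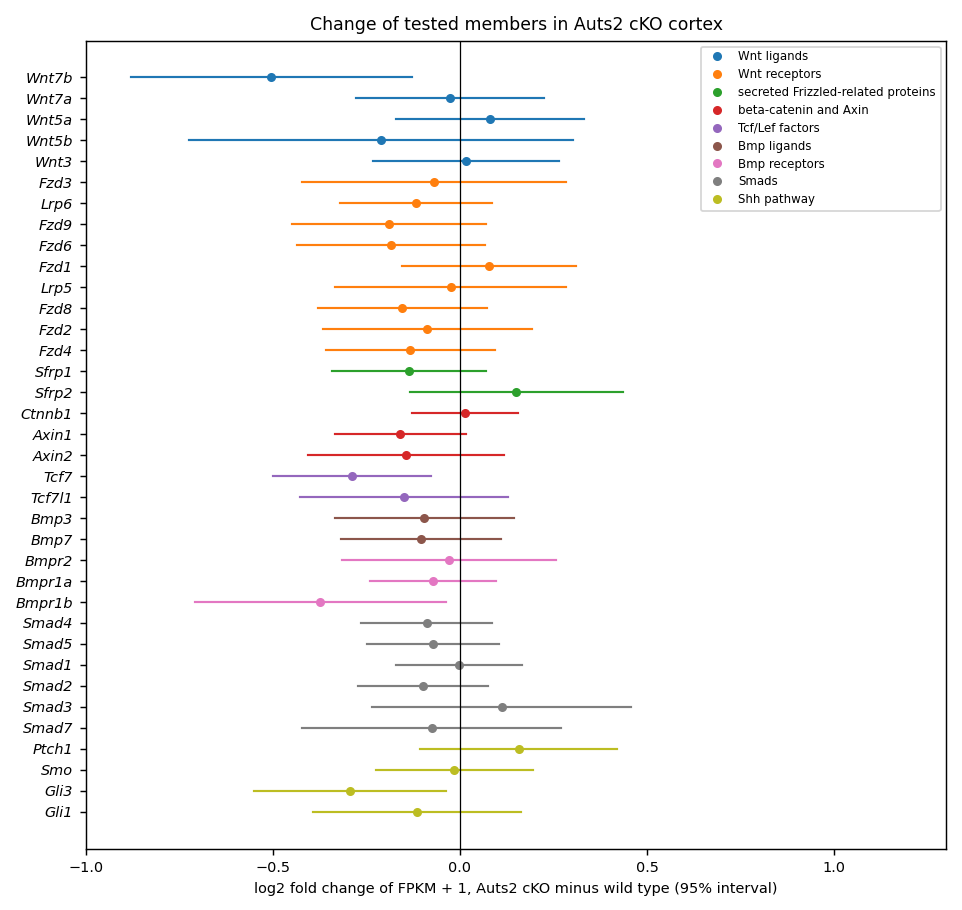
log2 fold change of FPKM + 1 (Auts2 cKO minus wild type) of 36 of the 37 tested members, coloured by role, with lines for unadjusted 95% intervals from limma (4 libraries a group). Most points lie left of 0, and the intervals of Wnt7b, Tcf7, Bmpr1b and Gli3 leave out 0, though no member passed the adjusted threshold.

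The highest and lowest values often lay in the same 3 libraries. Wild type 1 and 2 were the 2 highest of the 8 libraries in 13 of the 37 members (35.1%, against 16.7% of all genes tested) and the 2 lowest in 0 (15.1% of all genes). Library cKO 1 was the lowest of the 8 in 16 of the 37 (43.2%, against 22.3% of all genes). Among those 16 were both Wnt7b and Gli3, 2 of the Frizzled receptors, all 3 Bmp receptors and 6 Smads. Ctnnb1 was an exception, with its highest value in cKO 1: 319, 283, 274 and 275 FPKM in cKO 1 to 4 and 275, 279, 303 and 282 FPKM in wild type 1 to 4.

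Fzd3 is an example for cKO 1, with 9.48 FPKM there and 17.8, 18.5 and 15.2 FPKM in cKO 2 to 4, against 15.3, 14.1, 16.4 and 16.6 FPKM in wild type. Wnt5b, a close relative of Wnt5a, is one for wild type 1 and 2, with 1.82, 1.59, 2.21 and 1.82 FPKM in cKO and 3.4, 4.12, 1.23 and 1.36 FPKM in wild type. Without wild type 1 and 2, 13 of 37 members were positive and the median log2 change was -0.06. Without cKO 1 as well, an alternative chosen after seeing the data, 16 of 37 were positive and the median was -0.02. The log2 change of Wnt7b was then -0.10 and that of Gli3 -0.08, while that of Tcf7 was -0.31. No member was called in any of these fits.

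**Figure D3:**
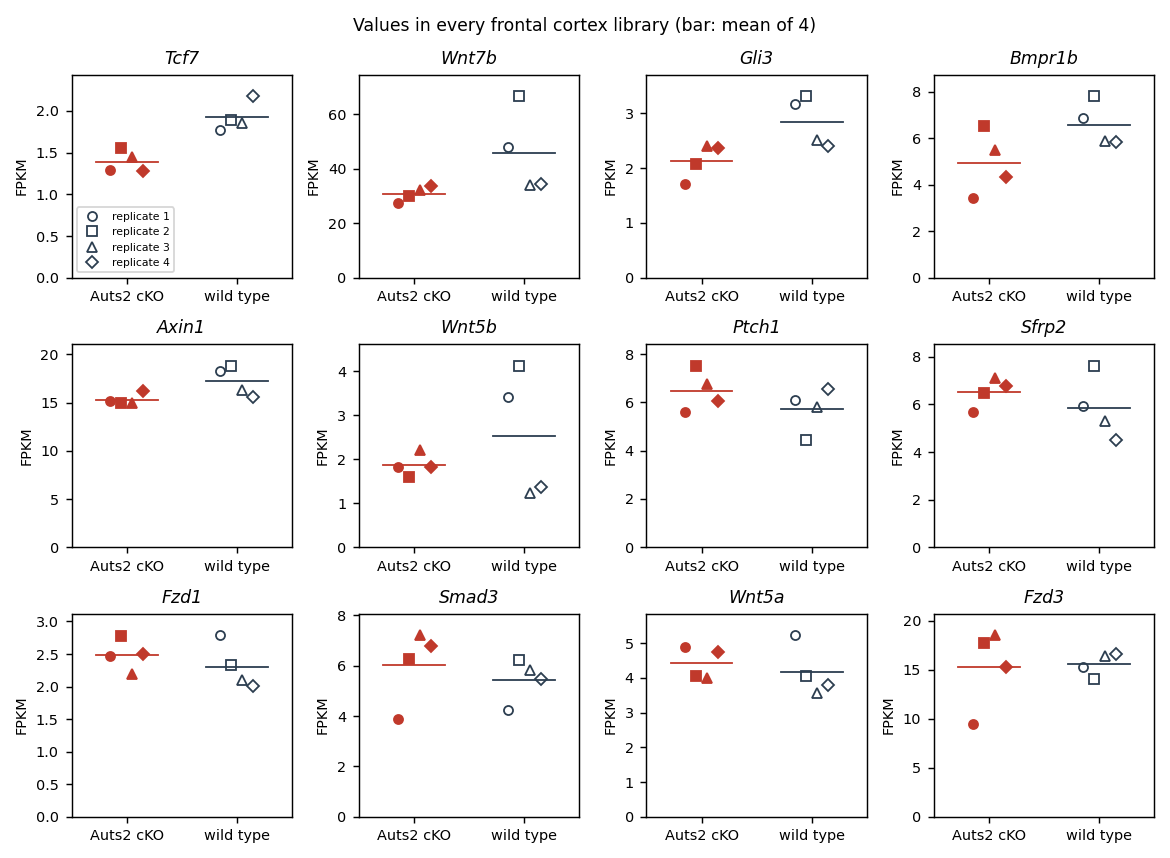
FPKM of 12 members in every frontal cortex library, with Auts2 cKO (filled) left of wild type (open), 1 marker shape per replicate number and a bar at the mean of 4. Wild type 1 and 2 are high for Wnt7b, Wnt5b, Gli3 and Bmpr1b, cKO 1 is low for Fzd3, Smad3 and Bmpr1b, and only Tcf7 among the 12 separates the groups with neither wild type 1 and 2 highest nor cKO 1 lowest.

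None of 13 lists of cell type markers had summed levels that separated the groups. The 8 markers of intermediate progenitors, the cells between radial glia and neurons, summed to 34.8, 28.7, 28 and 29.2 FPKM in cKO and 38.1, 38.5, 33.0 and 32.0 FPKM in wild type, and 0 of the 7 tested had a positive log2 change. Radial glia markers summed to 475 to 531 FPKM in cKO and 442 to 547 FPKM in wild type, and were lowest in wild type 1 and 2. The part of cell composition in the members' values was not tested.

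Other genes of the 3 pathways were not called either. Of 124 tested genes on 10 lists of ligand regulators, coreceptors, transducers, cofactors and targets, 0 were called in cKO cortex (limma, with or without its trend and robust settings, 10 at an unadjusted p under 0.05), 38 had a positive log2 change, and the median was -0.06. The genes with the smallest p on the lists included Nkd2, a membrane-bound inhibitor of Wnt signalling in the cytoplasm (log2 change -0.44, adjusted p = 0.613), Kremen1, a receptor for Dkk inhibitors (-0.57), Rspo2, a secreted Wnt enhancer (-0.38), and Tnfrsf19, a common Wnt target (-0.21). On the Bmp lists they were Fstl1, a secreted Bmp antagonist (-0.18), Tgfbr1, a TGF-beta receptor (-0.25), and Smurf1, a ubiquitin ligase for Smads (-0.18). On the Shh lists they were Gas1, a Shh coreceptor (-0.27), Kif3a, a motor needed for cilia (0.18), and Mycn, a target (-0.11). The 20 secreted Bmp regulators and other ligands were the one list whose summed level separated the groups, at 57.9 to 61.7 FPKM in cKO and 63.6 to 71.9 FPKM in wild type.

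The 29 members below the filter averaged at most 0.909 FPKM and were not tested. Groups did not overlap for 3 of the 27 of them that were above 0 in some library, beside 2.24% of all genes of that kind. Among those averaging 0.1 FPKM or more it was 3 of 17 members, beside 3.6% of 5438 genes. Wnt2 had 0.264, 0.456, 0.153 and 0.400 FPKM in cKO, against 0.0926, 0.0734, 0.149 and 0.0449 FPKM in wild type, so the lowest cKO library and the highest wild type library nearly met. Wnt4 had 0.258 to 0.418 FPKM in cKO, against 0.470 to 0.574 FPKM in wild type. Smad6, an inhibitory Smad, had 0.136 to 0.253 FPKM in cKO, against 0.255 to 0.552 FPKM in wild type.

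The pull-down asks which transcripts are more abundant in the AUTS2 antibody fraction than in IgG or input RNA. Gli1 and Gli2 were higher in the RIP than in both controls, and Fzd3, Bmpr1a and Bmpr2 were lower than in both. Against input alone, Lrp5 and Axin1 were also higher and Smad4 was also lower. Both comparisons use the same RIP libraries, so their values are given side by side and the second is no repeat of the first. The 2 tables were scaled separately, and for that reason the same RIP library has slightly different values in each.

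Of 43 members tested against IgG, 2 were called higher and 3 lower, which is 11.6% called: 2 of 6 Shh pathway genes, 2 of 3 Bmp receptors and 1 of 10 Wnt receptors. Over all 14570 genes tested against IgG 23.4% were called, 13.7% higher and 9.69% lower, so the members' share was below that of genes at large. Between RIP and IgG 11 members lay above without overlap and 9 below, where 64.4% of all genes did not overlap. Against input 4 of 43 members were called higher and 4 lower, which is 18.6%, where 35.9% of all 14458 genes were called, 19.3% higher and 16.6% lower. Without overlap with input 16 members lay above and 11 below, where 71.1% of all genes did not overlap. The median log2 change of the members was 0.03 against IgG and 0.11 against input, beside 0.02 and -0.02 over all genes. After median-ratio rescaling of the libraries the median against IgG was -0.02, so its sign depends on the scaling.

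Gli2, the main activator of Shh targets in the mouse, had 9.0 and 9.34 FPKM in RIP A and B, against 4.2 and 4.24 FPKM in IgG A and B. In the other table it had 9.16 and 9.48 FPKM in RIP, against 4.08 and 3.39 FPKM in input. RIP libraries were more than 2-fold above both controls, with log2 changes of 0.97 against IgG (SE 0.20, adjusted p = 0.0192) and 1.13 against input (SE 0.20, adjusted p = 0.00876). Gli1 had 6.09 and 7.05 FPKM in RIP, against 1.96 and 2.88 FPKM in IgG. With input it had 6.20 and 7.16 FPKM in RIP, against 2.88 and 2.48 FPKM in input. The log2 changes of Gli1 were 1.16 against IgG (SE 0.26, adjusted p = 0.0243) and 1.06 against input (SE 0.22, adjusted p = 0.0155).

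The third Gli gene and the rest of the pathway were not called. Gli3 had 7.52 and 6.52 FPKM in RIP, against 5.24 and 7.63 FPKM in IgG, values that overlap, and its log2 change was 0.13 against IgG (SE 0.24) and 0.17 against input (SE 0.19). Ptch1 differed by 0.03 against IgG and 0.14 against input. Smo was the member of this pathway with negative values, -0.56 against IgG and -0.33 against input, with 7.81 and 6.17 FPKM in RIP, against 11.1 and 10.5 FPKM in IgG. Shh lay under the filter, at 0.674 and 0.517 FPKM in RIP, against 0.456 and 0.474 FPKM in IgG and 0.794 and 0.758 FPKM in input, and so lay on opposite sides of its controls.

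Lrp5, a Wnt coreceptor, had 9.85 and 8.51 FPKM in RIP, against 4.25 and 4.76 FPKM in input, a log2 change of 0.89 (SE 0.20, adjusted p = 0.0186). Against IgG, where it had 9.68 and 8.39 FPKM in RIP and 7.18 and 6.91 FPKM in IgG, the groups did not overlap but the change of 0.32 was not called (adjusted p = 0.278). Axin1 had 18.8 and 23.4 FPKM in RIP, against 14.6 and 13.2 FPKM in input, a log2 change of 0.56 (SE 0.17, adjusted p = 0.0452), and with the trio as a block its adjusted p was 0.0535. Against IgG it differed by 0.28 (adjusted p = 0.293), and RIP A and IgG B had nearly the same level. Whether Lrp5 or Axin1 differed more from input than from IgG was not tested.

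Fzd3 was the member furthest below both controls. It had 10.4 and 12.9 FPKM in RIP, against 33.9 and 40.3 FPKM in IgG, and 10.6 and 13.1 FPKM in RIP, against 36 and 33.2 FPKM in input. The log2 changes were -1.60 against IgG (SE 0.17, adjusted p = 0.00343) and -1.48 against input (SE 0.16, adjusted p = 0.00189). No other Frizzled gene was called: Fzd1 differed by 0.36 against IgG and 0.20 against input, Fzd8 by 0.04 and 0.69, Fzd9 by 0.15 and 0.47, Fzd4 by -0.50 and -0.27. The coreceptor Lrp6 differed by -0.18 and 0.21.

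The Bmp receptors behaved like Fzd3 with the exception of Bmpr1b. Bmpr1a had 6.77 and 7.12 FPKM in RIP, against 14.5 and 16.5 FPKM in IgG, and 6.89 and 7.23 FPKM in RIP, against 17.0 and 22.1 FPKM in input. Its log2 changes were -1.05 (SE 0.18, adjusted p = 0.0102) and -1.34 (SE 0.19, adjusted p = 0.00425). Bmpr2 had 24.0 and 22.2 FPKM in RIP, against 42.4 and 42.4 FPKM in IgG, and 24.4 and 22.6 FPKM in RIP, against 37.8 and 36.6 FPKM in input. Its log2 changes were -0.85 (SE 0.12, adjusted p = 0.00651) and -0.64 (SE 0.12, adjusted p = 0.0105). Bmpr1b differed by 0.06 against IgG and by -0.41 against input, with SEs of 0.28 and 0.37.

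Smad4 had 14.1 and 15.9 FPKM in RIP, against 25.8 and 33.0 FPKM in input, a log2 change of -0.92 (SE 0.17, adjusted p = 0.0102). Against IgG, at 13.8 and 15.7 FPKM in RIP and 17.5 and 19.7 FPKM in IgG, it was also lower in both trios, by less, and not called (-0.32, adjusted p = 0.193). The other Smads were not called. Smad2, which TGF-beta and activin receptors phosphorylate, differed by -0.47 against IgG and -0.62 against input, Smad5 by -0.41 and -0.58, Smad1 by -0.30 and -0.04, Smad3 by 0.53 and 0.09, and the inhibitory Smad7 by 0.02 and 0.19.

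Ligands, Sfrp genes and Tcf/Lef factors were not called in either comparison. Wnt7b had 19.3 and 16.8 FPKM in RIP, against 12.4 and 14.9 FPKM in IgG (log2 change 0.38, adjusted p = 0.152), and 19.6 and 17.1 FPKM in RIP, against 16.3 and 17.6 FPKM in input (0.11). Wnt3 differed by 0.55 and 0.56, Wnt7a by -0.06 and -0.26, and Bmp7 by -0.72 and -0.58, with 1.28 and 1.40 FPKM in RIP, against 2.65 and 3.06 FPKM in IgG. Sfrp2 came nearest to a call, with 16.3 and 14.5 FPKM in RIP, against 11 and 9.69 FPKM in input (0.53, SE 0.17, adjusted p = 0.0516), and differed by 0.46 against IgG. Sfrp1 had values on the other side, -0.23 against IgG and -0.38 against input. Axin2, a direct target of Wnt signalling, differed by 0.45 and 0.63. Ctnnb1 had 153 and 139 FPKM in RIP, against 124 and 160 FPKM in IgG (0.05), and 156 and 141 FPKM in RIP, against 128 and 133 FPKM in input (0.18). Wnt5a had 1.84 and 3.97 FPKM in RIP, against 4.78 and 2.17 FPKM in IgG, and differed as much within a fraction as between them. Lef1 and Tcf7 had log2 changes between -0.15 and 0.16 with SEs of 0.28 to 0.53, and the wide errors of such low transcripts leave changes of that size undetectable here.

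Below the filter were 23 members in each table, with means of at most 0.915 FPKM in the IgG and 0.922 FPKM in the input table, and 3 of them, Wnt1, Wnt3a and Wnt8a, were listed at 0 in every library. Bmp2, at a mean of 1.03 FPKM, and Bmp6, at 0.915 FPKM, lay just inside and just outside the filter in the IgG table. In the input table these places were held by Bmp6 at 1.02 FPKM and Wnt4 at 0.922 FPKM.

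**Figure D4:**
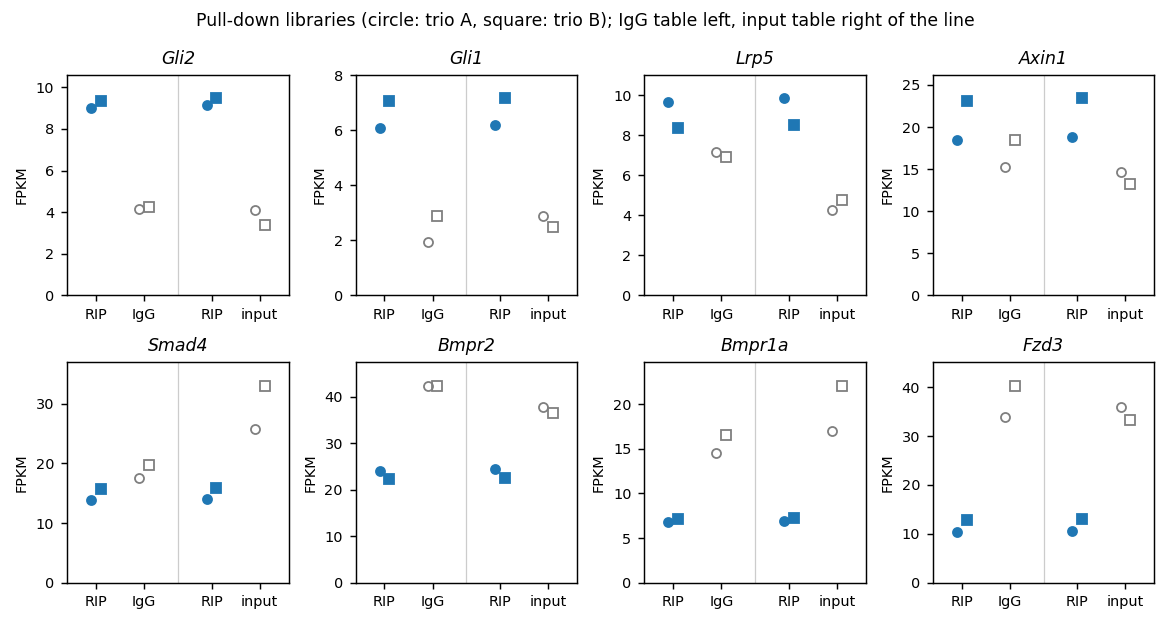
FPKM of the 8 members called in at least 1 pull-down comparison, in every library (circle for trio A, square for trio B), with AUTS2 RIP (filled) left of IgG or input (open) and a line between the separately scaled tables. RIP points of Gli1 and Gli2 lie above both controls, those of Fzd3, Bmpr1a and Bmpr2 below both, and Lrp5, Axin1 and Smad4 stand apart more clearly from input than from IgG in the plotted values.

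These calls rest on 2 pools. Without IgG A no gene of any kind was called against IgG, without RIP A 2 members and without RIP B 1 member remained called, and without IgG B 4 members did. Gli1 and Gli2 were called in neither comparison without RIP A or without RIP B. Against input the called members changed with the library left out (RIP A, RIP B, input A or input B). Some had not been called with all libraries: Axin2 (log2 change 1.005) and Smad5 (-1.012) without input A, and Smad2 (-0.984) without input B. Fzd3 was called in each of these fits except the one without IgG A, where its adjusted p was 0.0503 (limma, the lone IgG library assumed to vary like the others).

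Gene totals can hide which transcripts carry a value. The full-length coding transcript of Gli2 had 4.12 and 4.41 FPKM in RIP, against 1.85 and 1.88 FPKM in IgG, and 4.19 and 4.47 FPKM in RIP, against 1.53 and 2.03 FPKM in input. A shorter Gli2 transcript annotated for nonsense-mediated decay, a pathway that degrades RNAs with early stop codons, had 3.38 and 4.17 FPKM in RIP, against 0 and 2.27 FPKM in IgG, and 3.44 and 4.22 FPKM in RIP, against 0.870 and 1.36 FPKM in input. Both lay above both controls in each trio. With protein-coding transcripts alone Gli2 was no longer called, at a log2 change of 0.68 against IgG (adjusted p = 0.115) and 0.71 against input (adjusted p = 0.0768), and Gli1 stayed called at 1.13 and 0.90. The same transcripts added calls that gene totals lack: Axin2 was higher than IgG by 0.58 (adjusted p = 0.0246), Sfrp2 was higher than input by 0.53 (adjusted p = 0.0363) and Smad5 was lower than input, at -0.85 (adjusted p = 0.00699).

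Ctnnb1 had much of its level in a retained-intron transcript of 1292 bases. In frontal cortex this transcript stood at 82.1, 68.5, 64.6 and 64.4 FPKM in cKO, against 60.5, 58.1, 86.4 and 58.0 FPKM in wild type. The full-length coding transcript stood at 223, 205, 198 and 202 FPKM in cKO, against 202, 214, 199 and 211 FPKM in wild type. In the total RNA of the pull-down the retained-intron transcript was above the coding one in every library: 72.0 and 62.0 FPKM in RIP, against 64.4 and 91.4 FPKM in IgG, where the coding transcript had 49.4 and 42.3 FPKM in RIP, against 34.6 and 17.5 FPKM in IgG. Over all members retained-intron transcripts took 12.1% to 15.7% of the summed FPKM in cKO and 10.0% to 15.9% in wild type, where all protein-coding genes had 5.65% to 5.92%. This share was mostly that of Ctnnb1: without it the members had at most 1.96% in any cKO library and at most 1.64% in any wild type library, below all protein-coding genes. In the pull-down the members had 19.8% to 21.5% in RIP, 19.1% to 29.1% in IgG and 16.5% to 18.6% in input, and all protein-coding genes 12.3% to 12.9% in RIP, 11.4% to 12.3% in IgG and 9.21% to 10.1% in input. Without Ctnnb1 the members had 3.48% to 5.82% in RIP, 7.08% to 8.28% in IgG and 2.52% to 6.47% in input, again below all protein-coding genes. Polyadenylated and total RNA libraries differ in kit and tissue piece, and their levels were not tested against each other.

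The members that were higher in the RIP and those that were lower differ in base composition. The most abundant coding transcript of Gli1 is 59.0% G and C and that of Gli2 57.5%, with 3' UTRs of 165 and 1653 bases. Fzd3, Bmpr2 and Bmpr1a have 40.3%, 41.0% and 41.3% G and C, with 3' UTRs of 10270, 8529 and 3810 bases. Lrp5 (58.6%) and Axin1 (56.6%) lie with the Gli genes, and Smad4 (49.4%) lies between the ends. To show the contrast at the level of sequence, 90 coding bases from the middle of the longest coding exon are given for members of each kind, with G and C in capitals (GRCm38, all on the minus strand, printed 5' to 3', from GENCODE vM21 transcripts). They come from chr10:127330881-127330970 (Gli1, exon 13 of 13), chr1:118836938-118837027 (Gli2, exon 14 of 14), chr14:65235378-65235467 (Fzd3, exon 4 of 7) and chr14:34422664-34422753 (Bmpr1a, exon 10 of 13).
Gli1: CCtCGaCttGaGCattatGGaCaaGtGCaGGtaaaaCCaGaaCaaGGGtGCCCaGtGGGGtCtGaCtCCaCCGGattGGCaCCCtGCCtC
Gli2: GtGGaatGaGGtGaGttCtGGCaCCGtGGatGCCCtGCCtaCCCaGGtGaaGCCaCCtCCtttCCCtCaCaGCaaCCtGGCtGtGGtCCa
Fzd3: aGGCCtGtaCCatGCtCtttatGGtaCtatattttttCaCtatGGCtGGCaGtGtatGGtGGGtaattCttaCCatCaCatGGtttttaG
Bmpr1a: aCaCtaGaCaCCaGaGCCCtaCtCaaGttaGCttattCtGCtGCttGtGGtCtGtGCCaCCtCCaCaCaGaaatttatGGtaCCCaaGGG

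The Gli1 and Gli2 stretches are 56.7% and 60.0% G and C, and those of Fzd3 and Bmpr1a 40.0% and 48.9%. Across the 43 tested members the log2 change was higher at higher G and C content of the transcript, with a Pearson r of 0.65 against IgG and 0.69 against input (Spearman 0.62 and 0.64, across genes, which are not independent replicates). Over all genes with a coding transcript, r was 0.28 against IgG (12119 genes) and 0.34 against input (12160 genes). With the log2 length of the 3' UTR the members' r was -0.51 against IgG and -0.42 against input, beside -0.15 and -0.09 over all genes. The transcript taken for Tcf7l1 has 463 bases, all coding, and entered with 0 bases of 3' UTR, an outlying value. By Spearman, which uses ranks, the members had -0.553 and -0.544, beside -0.215 and -0.117 over all genes. Log2 coding length had the largest r over all genes, 0.456 against IgG and 0.572 against input, beside 0.106 and 0.293 over the members. For log2 transcript length the signs were opposite, with -0.407 and -0.265 over the members and 0.143 and 0.294 over all genes. Of the members under 45% G and C, 1 of 7 had a positive change against IgG and 0 of 7 against input, where all genes of that range had 37.7% and 30.9%. From 55% upward it was 11 of 16 and 14 of 17, where all genes had 70.2% and 70.6%. Smo (57.8% G and C), Bmp7 (55.3%) and Wnt7a (55.4%) are exceptions, with negative changes in both comparisons. Fzd2 and Wnt5b, also in this range, had negative changes against IgG only.

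After the trend of log2 values with transcript length and G and C content was removed over all genes, no member was called higher. Gli1 then differed by 0.81 (adjusted p = 0.0785) and Gli2 by 0.60 (adjusted p = 0.0853) against IgG, and by 0.49 and 0.54 against input, while Lrp5 and Axin1 differed by 0.22 and 0.11 against input. Fzd3 stayed lower, at -1.58 against IgG (adjusted p = 0.00452) and -1.70 against input (adjusted p = 0.00247), as did Bmpr1a, at -0.90 and -1.24, Bmpr2, at -0.87 and -0.88, and Smad4 against input, at -1.03. Smo was then called lower in both, and Bmp7, Sfrp1 and Wnt7a against input. Of 43 members 13 had a positive change against IgG and 12 against input. Whether length or base composition accounts for the calls was not tested.

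**Figure D5:**
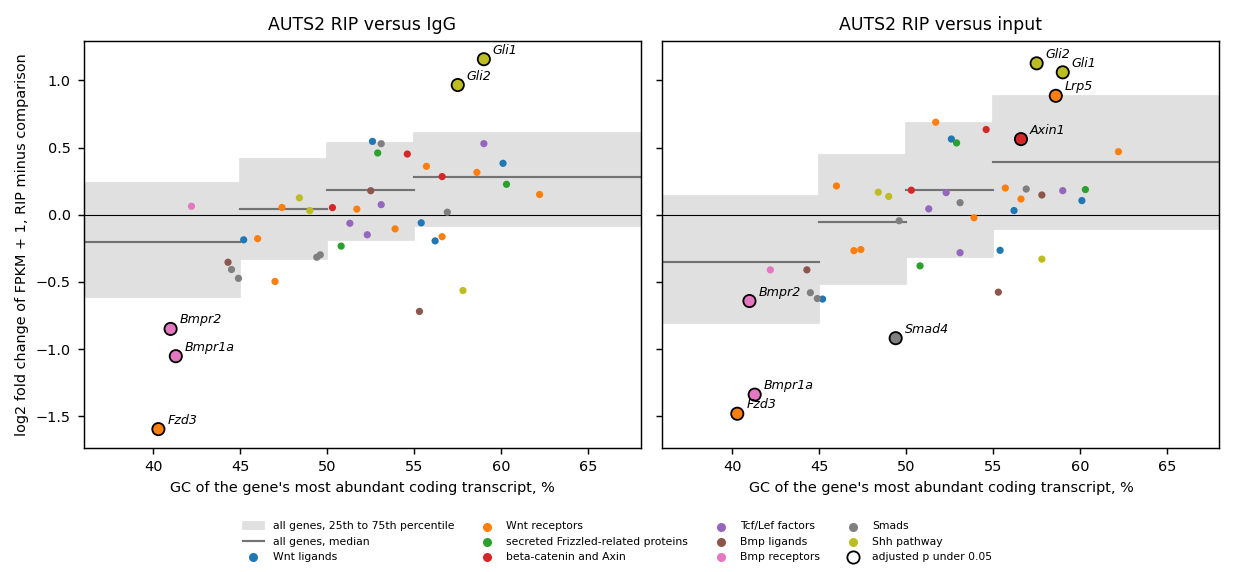
log2 fold change of FPKM + 1 (AUTS2 RIP minus IgG, left, and minus input, right) against the G and C percentage of the most abundant coding transcript of 42 of the 43 tested members, coloured by role, with called members outlined and named. Grey bands and lines are the 25th to 75th percentiles and medians of all genes in 4 ranges of G and C. Fzd3, Bmpr1a and Bmpr2 lie at the low end and below the bands, apart from Bmpr2 against input, and Gli1 and Gli2 lie at the high end and above them.

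Read counting can also mix genes that overlap, since the strand setting is not given. Gli1 overlaps Arhgap9 and a predicted gene on the opposite strand. Bmpr1a, Axin1 and Smad4 each overlap a gene on the opposite strand. Gli2 overlaps a small RNA gene, Bmpr2 a gene on its own strand and Fzd3 predicted genes. Lrp5 overlaps none.

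Other genes of the 3 pathways were counted in the main fits, in which the trend with length and G and C content was not removed. The part of length and base composition in these counts was not tested. Of 130 tested on the 10 lists, 22 were higher and 11 lower in the RIP than in IgG, which is 25.4% called beside 23.4% of all genes. Against input 38 of 134 were higher and 19 lower, which is 42.5% beside 35.9% of all genes. In the cytoplasmic Wnt list 9 of 25 were higher and 4 lower than IgG, and 10 higher and 5 lower than input. Celsr3, an atypical cadherin of the planar polarity pathway in which Fzd3 also acts, was higher by 1.35 against IgG and 1.90 against input. Vangl2, another planar polarity protein, was lower than IgG (log2 change -1.47), and so was Gsk3b, the kinase of the beta-catenin degradation complex (-1.36). Against input Celsr2 (1.24) and Apc2 (1.57), a relative of the Apc scaffold, were higher. Among nuclear cofactors and targets 4 of 15 were higher than IgG and 8 of 15 higher than input, with 4 lower, and Bcl9l and Bcl9, coactivators of beta-catenin, were higher in both, by 0.61 and 0.44 against IgG and 1.06 and 0.94 against input. Against IgG Tle3, a corepressor, was higher by 0.45, and against input the target Myc by 1.46.

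Secreted Wnt regulators had no call in either comparison, 0 of 8 and 0 of 9 by limma, with 1 and 3 at an unadjusted p under 0.05. Wnt coreceptors had none against IgG, 0 of 10, also at an unadjusted p under 0.05. Against input Ptk7, a Wnt coreceptor, was higher by 0.69, the 1 call of 10. Of 14 secreted Bmp regulators and other ligands 2 were lower than IgG, Inhba, an activin subunit (-1.55), and Twsg1, a Bmp-binding protein (-0.86), and 4 of 16 were lower than input, among them Twsg1 (-1.0), Inhba (-1.15) and Fstl1 (-0.77). Of 13 other Bmp and TGF-beta receptors 3 were lower than IgG, the activin receptors Acvr1b (-0.76) and Acvr2a (-0.60) and the TGF-beta receptor Tgfbr1 (-1.05). Against input 2 of 13 were lower, Tgfbr1 (-1.26) and Acvr2a (-0.82), and Neo1, a receptor for Rgm proteins, which act as Bmp coreceptors, was higher (0.48). Among Smad cofactors and targets Smurf1 (0.80) and Ski (0.48), a Smad corepressor, were higher than IgG, 2 of 13. Smurf1 (0.81), Ski (0.65) and Zeb2 (0.40) were higher than input, 3 of 14. These counts stand beside 13.7% of all genes called higher and 9.69% lower than IgG. Against input 19.3% of all genes were called higher and 16.6% lower.

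On the Shh side 3 of 8 genes for ligand handling and coreceptors were higher than IgG and 6 of 9 higher than input, with none lower, beside 13.7% of all genes higher than IgG and 19.3% higher than input. They include Scube1, which belongs to the family that helps release Shh (0.99 against IgG and 1.32 against input), Disp2, a relative of the Shh exporter (0.70 and 0.81), Boc, a Shh coreceptor (0.81 against IgG), and Scube3 (0.97 against input). Of 17 genes of the cilium and intracellular transduction 4 were higher and 1 lower than IgG, and 7 higher and 3 lower than input. Kif7, a ciliary regulator of Gli proteins, was higher by 1.69 against IgG. Iqce, a ciliary protein, was higher by 1.17 against IgG and 1.59 against input, as were Ift172 (1.77) and Kif3a (0.70) against input. Spop, an adaptor that targets Gli proteins for degradation, was lower than IgG (-1.77). Of the common targets Ccnd2, a cyclin, was lower in both (-1.09 and -0.63), the 1 call of 7 against IgG. Against input Mycn (0.59) and Olig2 (0.65) were higher. The counts of all lists were made without adjustment for transcript length or base composition. Without IgG A none of these genes was called against IgG, and without trend and robust settings 17 were.

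Markers of cell types were summed in the same fractions. The sums did not overlap for 5 of the 13 lists against IgG and for 11 of 13 against input, where 64.4% and 71.1% of all single genes did not overlap. Cajal-Retzius cell markers, among them Reln, summed to 179 and 195 FPKM in RIP, against 106 and 122 FPKM in IgG. Only 3 of the 5 tested had a positive log2 change, and 1, Reln, was called higher. Striatal markers summed to 265 and 269 FPKM in RIP, against 204 and 234 FPKM in IgG. The striatal sum rests on some of its genes, since 6 of 13 had a positive log2 change, 1 was called higher and 1 lower. Microglia markers summed to 15.0 and 16.3 FPKM in RIP, against 20.3 and 26.4 FPKM in IgG. Radial glia, which carry much of the Wnt and Shh machinery, had marker sums of 432 and 445 FPKM in RIP, against 429 and 443 FPKM in IgG, and of 440 and 452 FPKM in RIP, against 544 and 588 FPKM in input. Against input 7 of the 10 radial glia markers had a positive log2 change, with a median of 0.16, while 2 were called lower and 0 higher, so the sum and the median differ in direction. The part of these cell types in the members' values was not tested.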

How the data were processed

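Per the labels' protocols, a TruSeq kit was used on polyA RNA of frontal cortex and a SMARTer Stranded kit on total RNA of the pull-down. The authors deposited FPKM per transcript, a unit scaled by length and library size, in 3 tables, each scaled by itself. STAR 2.5, SAMtools, Cuffdiff 2.2.1 and GRCm38.p4 (mm10) are named per the submitters' processing notes, and GENCODE vM14 per the file headers. Scaling, filters and strand settings were not given in the sources used here. Without counts in the tables, sequencing depth is unknown, and an exact 0 can be a failed estimate.

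Each table lists 128508 transcripts, 127975 of them found in GENCODE vM21 by identifier, and transcripts were summed per symbol. The 25 entries with a CDS prefix were 0 throughout. Log2(FPKM + 1) values of genes averaging 1 FPKM or more were tested with limma 3.58.1 (R 4.3.3, trend and robust, two-sided), adjusted after Benjamini-Hochberg over all genes at 0.05. Fold changes on this scale understate those of low genes. The code was tested on simulated data. Python 3.11.15, pandas 2.3.3, numpy 2.4.6 and matplotlib 3.10.9 made tables and figures.

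The symbol rule allows any member to be named, but 1 member that is part of the counts is not reported here and is left out of the figures. Members called in a comparison are described in full, or, with fewer than 5 called, the 5 highest and 5 lowest test statistics, and up to 3 called genes per list of other pathway genes. The rule for members reads symbols alone, but that rule, the lists and the markers were chosen with earlier results of these data known. Library cKO 4 was matched to its column by library number, since its label and column give it different short names.

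Trio letters pair the pull-down libraries, since the study's design matches RIP, IgG and input of a pool. Once group means were subtracted, libraries with the same letter correlated at 0.0088 (RIP with IgG) and 0.012 (RIP with input). Numbers of cKO and wild type libraries only name them, with correlations of 0.18, 0.017, -0.039 and 0.066. Replicates of the frontal cortex are biological ones per the labels. Alternatives covered the pseudocount, the filter on low values, scaling, limma's settings, transcript classes, the replicate block, length and G and C content, Xist, and libraries left out.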

Additional observations from a re-analysis of the deposited data

Results flagged for a closer look

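Among 74 sets of 4 frontal cortex libraries (37 members in each group), 3 had 1 library far from the other 3 by Dixon's gap ratio at the 95% level, and chance flags about 1 in 20 groups. Wnt7a was at 4.01 FPKM in cKO 3, against 5.67 to 5.70 FPKM in the other cKO libraries. Tcf7l1 was at 1.45 FPKM in cKO 4, against 0.907 to 0.955 FPKM in the other cKO libraries. Bmp7 was at 1.24 FPKM in wild type 1, against 1.5 to 1.55 FPKM in the other wild type libraries.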

How the results depend on the processing

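In cKO cortex 0 members were called under all 21 alternatives, and positive members numbered 6 to 10 of 37 with 1 library left out. With Xist as a covariate 10 of 37 were positive, and with the length and G and C trend removed, chosen after seeing the data, 11 were. With the replicate number as a block 0 members were called in cKO and 5 against IgG, as without it, and 7 against input, where Axin1 was lost, and it changed no other call. The block together with the length and G and C trend gave 0 higher members against IgG, and 0 higher and 9 lower against input, and that trend removed without the block gave 0 higher against IgG, and 0 higher and 8 lower against input. At a mean of at least 5 FPKM 1 member was higher than IgG, because Gli1 was then not tested. With 1 library left out, members called against IgG ranged from 0 to 4, higher from 0 to 1 and lower from 0 to 3, and against input from 1 to 7, 0 to 3 and 1 to 5, with fewer libraries in each fit. The members described in full (10 in cKO, 5 against IgG and 8 against input) kept their sign there under every alternative that tested them. Others did not. With the length and G and C trend removed 10 of 43 members turned sign against IgG, with main log2 changes of up to 0.315 in size. Lrp5, Axin1, Ptch1 and Gli3 were among these 10. Against input 13 of 43 turned sign. With quantile normalization 7 turned sign against IgG and 2 against input. None had been called in the comparison in which it turned sign, though Lrp5 and Axin1 were called higher than input. Of the values of the members described in full, 18 of 74 values against IgG and 31 of 119 against input lost their call. Other pathway genes called against IgG fell to 17 without trend and robust settings and ranged from 0 to 19 with 1 library left out. The cause was not tested. Depth is unknown, so how far it limits the changes of low ligands such as Wnt3 cannot be judged.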
